A study of Mus musculus with 12 samples.

Results

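Tumour necrosis factor (TNF) is a cytokine that activated microglia and macrophages release, and it acts on cells through a pair of receptors. A bound receptor gathers adaptor proteins and kinases that switch on the IkB kinase (IKK) complex, which marks the inhibitor IkB-alpha for destruction and so frees the transcription factor NF-kB to enter the nucleus. NF-kB then drives genes for chemokines, adhesion molecules and survival factors, and also the genes of its own inhibitors, which end the response. In the retina this pathway is known from microglia, Mueller glia and blood vessels, and inherited photoreceptor degeneration is accompanied by activation of these cells.

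The 10 genes described here are the TNF receptors Tnfrsf1a and Tnfrsf1b, the NF-kB subunits Nfkb1, Nfkb2, Rel and Relb, the inhibitors Nfkbia and Tnfaip3, the atypical IkB protein Bcl3 and the target gene Icam1. They were taken from the gene table by symbol, and each of the 10 was found once among its 32867 genes. Whole retinas of 4 groups of mice, irrespective of gender and with 3 samples each, were sequenced as total RNA depleted of ribosomal RNA. Pde6b rd1 mice (rd1), in which a retroviral insertion disrupts the rod phosphodiesterase gene Pde6b, were taken at postnatal day 13. Pde6b rd10 mice (rd10), with a point mutation in the same gene, were taken at day 23. Prph rd2 mice (rd2), with a mutation in the peripherin gene Prph2, were taken at day 29. Wild-type C3H mice, which carry neither mutation, served as controls, and the labels give them day 13, day 23 and day 29, 1 sample each. By the study's methods rd1, rd2 and the controls share the C3H background and rd10 is on C57Bl6/J, whereas the sample labels give C57BL6/J for rd2. The labels and methods name no treatment for any group. For rd10 the mutation, the strain and the single day cannot be told apart, and for rd1 and rd2 the mutation is compared at 1 day with controls of 3 days, in rd2 with the strain unsettled.

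Gene counts summed to 17049495 in the smallest library and 24755890 in the largest, so that 3 counts in a library, taken here as the floor for folds, lay between 0.121 and 0.176 CPM (counts scaled to a common library size). Pde6b, the gene hit in rd1, was between 56.7 and 57.6 FPKM in rd1 against 241 to 245 in C3H, and Prph2 was between 421 and 482 FPKM in rd2 against 885 to 976 in C3H. FPKM values are reads scaled to gene length and to the depth of the library, and a point mutation cannot be checked by them. Rod markers were high in every sample, as in whole retina, and the summed markers of the pigment epithelium stayed at or under 24.1 FPKM. Xist, which marks female tissue, was between 0.0209 and 0.0281 FPKM in C3H, between 212 and 223 in rd1, between 40.0 and 45.0 in rd10 and between 86.6 and 109 in rd2, while the Y-linked gene Ddx3y was at 0 counts in every rd1 sample. Sex and mutation therefore cannot be told apart between rd1 and C3H, and the share of female tissue differed in the other comparisons as well. The common biological coefficient of variation between samples was 3.07% in C3H, 3.29% in rd1, 4.95% in rd10 and 7.20% in rd2. The C3H samples, labelled with 3 different days, varied least. Nothing in the labels says that the samples of a group came from separate animals, so p-values measure the spread between these samples, which may be technical.

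In the reference genome (GRCm38, GENCODE vM21) the 10 genes lie on 9 chromosomes. The receptor Tnfrsf1a is at chr6:125349362-125362484 on the plus strand and Tnfrsf1b at chr4:145213463-145246870 on the minus strand. Of the subunits, Nfkb1 is at chr3:135584655-135691547 (minus), Nfkb2 at chr19:46304320-46312385 (plus), Rel at chr11:23736847-23770970 (minus) and Relb at chr7:19606217-19629438 (minus). Bcl3 lies on the same chromosome as Relb, at chr7:19808462-19822770 (minus). Nfkbia is at chr12:55489410-55492647 (minus), Tnfaip3 at chr10:19000910-19015657 (minus) and Icam1 at chr9:21015985-21028817 (plus). Nfkb2, Bcl3 and Icam1 overlap genes of the opposite strand, and the strand setting of the counting is not given in the sources used here, so that reads from both strands could be mixed in these 3 genes if it ignored strand. Nfkb1 overlaps Gm43430, a gene of its own strand, over 3897 bases. Gm43430 had 39 to 41 counts in C3H and 60 to 82 in rd10, and its effect on the counts of Nfkb1 was not tested.

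NF-kB binds DNA at kB sites, and several of these genes are known to carry such sites in their own promoters. RefSeq promoter windows (GRCm38.p6, 250 bases before to 50 after a transcription start) were given for 8 of the 10 genes, Nfkb1 and Relb having none here. The kB consensus, searched on both strands, was present in a window of 5 of the 8 genes, Nfkb2, Rel, Nfkbia, Tnfaip3 and Bcl3. It was present in 4.51% of all 32851 windows and for 5.14% of the 27025 genes in that table. The shorter core GGAAATTCC, also searched on both strands and overlapping the consensus, was present for 3 of the 8 genes, Nfkbia, Tnfaip3 and Icam1, against 0.381% of all genes. Icam1 had a match to the core alone and none to the consensus. The core was an added search on the same windows, so its share is no independent support beside that of the consensus. Neither was found in the windows of Tnfrsf1a and Tnfrsf1b. A match is a run of letters and not a measured binding site, and no match says only that these letters are not in the window. For each gene with a match a stretch that holds it follows, 5′ to 3′ on the strand of the gene, to show how close to their starts these genes carry a kB run. Capitals mark the matches to either motif.
Nfkb2, chr19:46304693-46304722, plus strand, 44 to 15 bases before its first RefSeq start: gtcacGGGAATTCCCCccctcggggggccg
Rel, chr11:23771000-23771099, minus strand, 130 to 31 bases before the start: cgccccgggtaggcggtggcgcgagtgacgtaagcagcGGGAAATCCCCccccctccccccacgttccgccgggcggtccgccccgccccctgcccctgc
Nfkbia, chr12:55492648-55492777, minus strand, 130 bases up to the start: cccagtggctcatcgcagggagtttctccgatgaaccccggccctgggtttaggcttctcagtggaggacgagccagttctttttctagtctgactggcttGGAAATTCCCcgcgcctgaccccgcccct
Tnfaip3, chr10:19015411-19015540, minus strand, 130 bases up to its first RefSeq start, in an intron of a longer GENCODE transcript: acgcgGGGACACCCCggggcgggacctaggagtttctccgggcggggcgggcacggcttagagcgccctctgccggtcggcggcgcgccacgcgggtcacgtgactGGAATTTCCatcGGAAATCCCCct
Bcl3, chr7:19822736-19822765, minus strand, 10 bases before to 20 after the start: agtcggcggcagGGGAAGTCCCgctgcccg
Icam1, chr9:21015740-21015869, plus strand, 200 to 71 bases before the start: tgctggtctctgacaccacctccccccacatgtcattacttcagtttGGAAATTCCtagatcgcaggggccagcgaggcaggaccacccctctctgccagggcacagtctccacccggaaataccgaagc

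**Figure D1:**
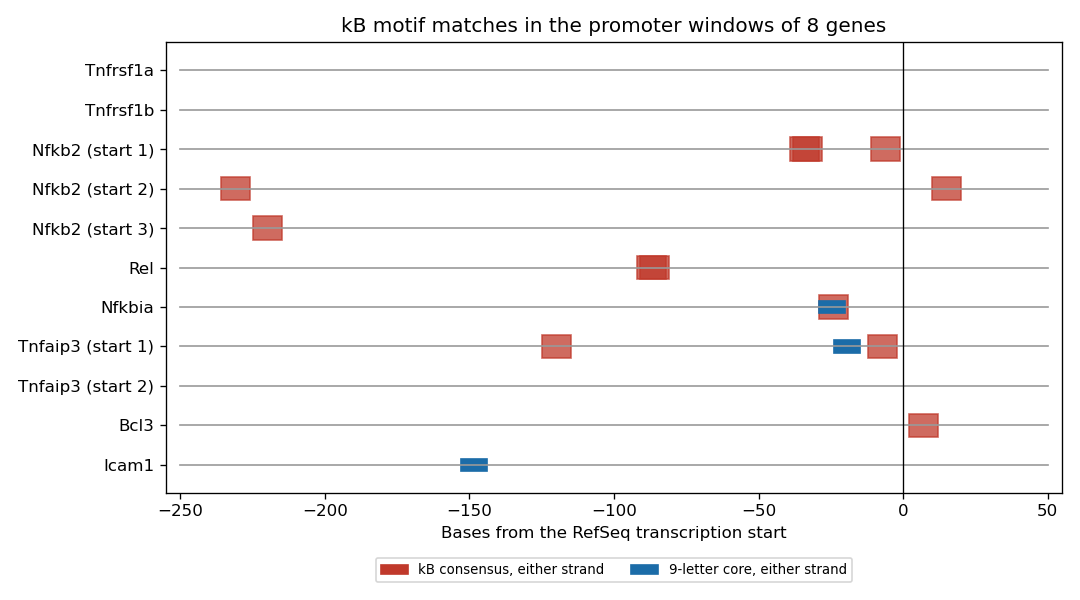
Matches to the kB consensus (red) and to its 9-letter core (blue) on either strand, plotted in bases from the RefSeq transcription start for the 8 genes with a promoter window. Each grey line is 1 window of 300 bases, and Nfkb2 has 3 starts and Tnfaip3 has 2, so that the right-hand match at start 2 of Nfkb2 is the same site as the match at start 3.

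In Nfkb2 the windows of the other starts overlap and share a further match, and a match 11 to 2 bases before the first start is not printed. In Nfkbia the consensus and the core coincide 29 bases before the start, and in Tnfaip3 the core lies between matches to the consensus.

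In the control retina the 10 genes spanned a wide range of levels. Tnfaip3, which encodes the ubiquitin-editing enzyme A20, stood highest with 35.6 ± 0.678 FPKM (mean ± SD, n = 3). Nfkbia, which encodes IkB-alpha, followed with 10.3 ± 0.0734 FPKM. The inhibitors thus had the highest levels per gene length of the 10 genes in C3H, and they kept these first places in rd1, rd2 and rd10. Tnfrsf1a was at 2.78 ± 0.205 FPKM, Nfkb1 at 2.15 ± 0.0388, Rel at 1.62 ± 0.122, Nfkb2 at 0.978 ± 0.0990 and Relb at 0.754 ± 0.178. The lowest were Tnfrsf1b at 0.470 ± 0.0750 FPKM, Icam1 at 0.310 ± 0.0785 and Bcl3 at 0.247 ± 0.0412. Neighbours in this order had separate ranges except Nfkb2 with Relb and Icam1 with Bcl3, whose samples overlapped. In rd10 the order changed: Bcl3 moved from the last place to place 4, with 11.3 ± 0.702 FPKM, and Nfkb1, Tnfrsf1b, Nfkb2 and Icam1, all between 3.13 and 3.88 FPKM in single samples, overlapped from one to the next.

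**Figure D2:**
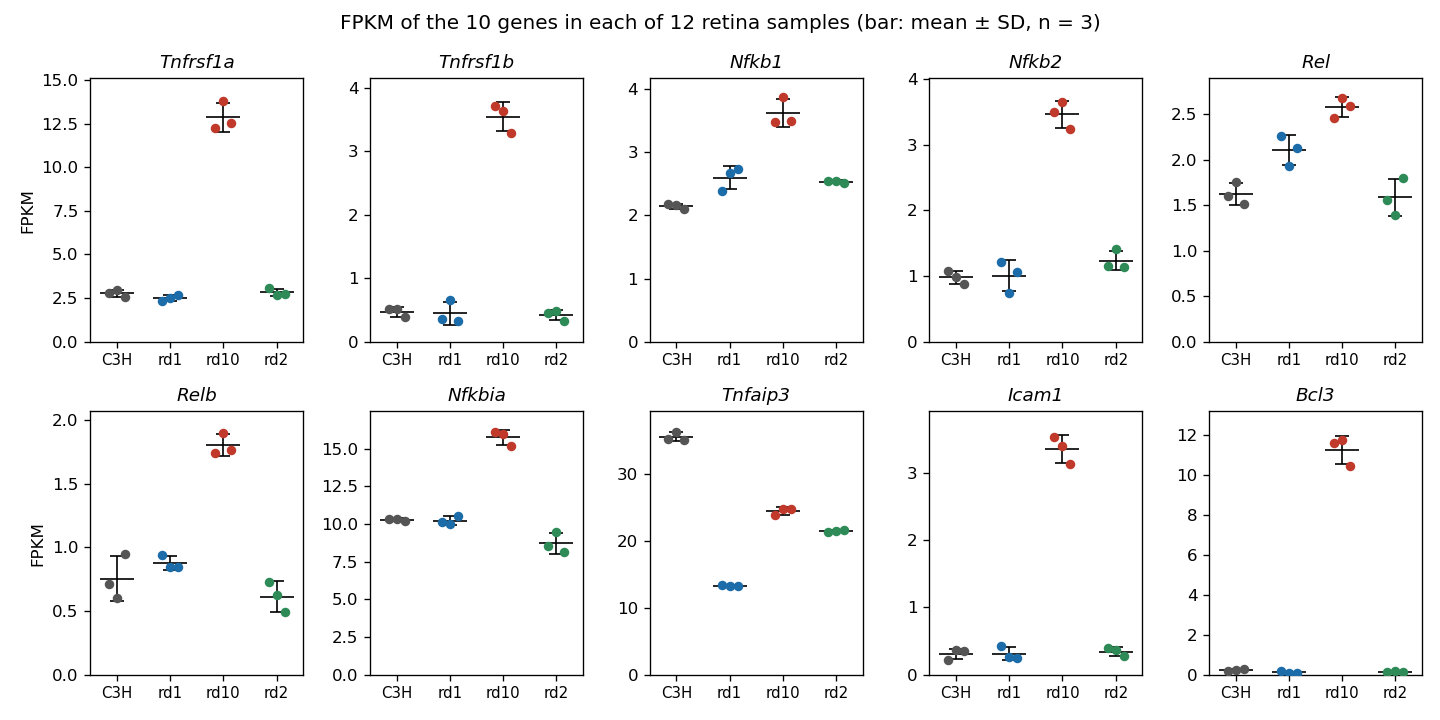
FPKM of each of the 10 genes in every sample, 1 panel a gene, with groups on the horizontal axis, points for samples and bars for the mean ± SD (n = 3). In 9 panels the rd10 samples lie above every other sample, and in the panel of Tnfaip3 all 9 samples of the models lie below the 3 C3H samples.

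The first question was which of these genes changed in each model around the peak of its photoreceptor loss, with the 3 C3H samples as reference. Calls used the study's thresholds, a 1.5-fold change together with p under 0.05 before adjustment, in edgeR's quasi-likelihood test. Adjusted p-values below are Benjamini-Hochberg values of the same test over all genes tested. In bulk tissue, a change in the number of cells of a type and a change in RNA per cell cannot be told apart. In rd10, 8 of the 10 genes were called higher, where 15.9% of all 18704 genes tested were, and 1 was called lower, where 8.08% were. The genes called higher were both receptors, all 4 subunits, Bcl3 and Icam1, and the gene called lower was Tnfaip3. The remaining gene, Nfkbia, passed the test but not the fold. All 10 had an adjusted p under 0.05 by edgeR, as had 54.1% of all genes. The median log2 fold change of the 10 genes was 1.49 and that of all genes tested was -0.0025. The 10 genes were chosen with earlier results of these data known. Values for all genes, here and below, are therefore a scale and not a test of the list. Samples of rd10 and C3H did not overlap, as TMM-normalized counts, in 9 genes upward and in Tnfaip3 downward, against 29.8% and 29.7% of all genes.

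Bcl3, which binds NF-kB dimers in the nucleus and can turn them from repressors into activators, showed the largest difference. Its counts were 10, 15 and 14 in the C3H samples of day 13, 23 and 29, and 711, 544 and 518 in rd10. No rd10 sample came near a control. The log2 fold change was 5.44 ± 0.14 (SE), a 43.5-fold difference (edgeR, adjusted p = 1.06e-17). The antisense genes Gm16174 and Gm16175, which overlap Bcl3 on the other strand, moved with it: Gm16174 was at 0 or 1 count in C3H and at 74 to 102 in rd10, and Gm16175 at 0 to 2 and at 8 to 18. Whether these are reads of Bcl3 was not tested.

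Icam1, the adhesion molecule by which leukocytes hold to endothelium and glia and a classical NF-kB target, had 19, 38 and 30 counts in C3H and 382, 277 and 273 in rd10. The groups were far apart, with a log2 fold change of 3.36 ± 0.15 (edgeR, adjusted p = 6.11e-14), which is 10.3-fold. The antisense gene Gm47079 stayed between 2 and 6 counts in C3H and between 4 and 5 in rd10.

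Both TNF receptors rose. Tnfrsf1b, the receptor found mainly on immune and endothelial cells, had 0.515, 0.512 and 0.383 FPKM in C3H and 3.71, 3.64 and 3.29 in rd10, a 7.22-fold difference (log2 2.85 ± 0.13, edgeR adjusted p = 2.13e-13). Tnfrsf1a, the widely expressed receptor with a death domain, had 2.82, 2.95 and 2.55 FPKM in C3H and 12.2, 13.8 and 12.5 in rd10. This is a 4.43-fold difference (log2 2.15 ± 0.085, edgeR adjusted p = 1.31e-14), smaller than that of Tnfrsf1b as a fold but larger in FPKM, since Tnfrsf1a started from the higher level.

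Of the NF-kB subunits, those of the non-canonical branch, in which the Nfkb2 product is cut and pairs with the Relb product, showed the larger folds. Nfkb2 rose from 1.07, 0.986 and 0.875 FPKM in C3H to 3.49, 3.65 and 3.24 in rd10 (log2 1.77 ± 0.12, edgeR adjusted p = 9.29e-11). Relb rose from 0.713, 0.600 and 0.948 FPKM to 1.74, 1.90 and 1.76 (log2 1.21 ± 0.15, edgeR adjusted p = 1.06e-06). The overlap of Nfkb2 with Psd, a gene of the opposite strand with 3429 to 4295 counts in C3H and 3031 to 4045 in rd10, covers 299 bases.

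Nfkb1, whose product is the DNA-binding partner in the canonical dimer, rose from 2.18, 2.16 and 2.1 FPKM in C3H to 3.49, 3.88 and 3.5 in rd10 (log2 0.70 ± 0.063, edgeR adjusted p = 7.16e-09). Rel, a transactivating subunit best known from lymphoid and myeloid cells, rose from 1.60, 1.76 and 1.51 FPKM to 2.46, 2.68 and 2.59 (log2 0.61 ± 0.083, edgeR adjusted p = 3.25e-06). Both were higher in every rd10 sample than in every control, but they passed the fold of 1.5 narrowly, at 1.62 and 1.52. The call of Rel was lost without the C3H sample of day 29 (log2 0.56) and without rd10 sample 2 (log2 0.58).

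The inhibitors went different ways in rd10. Nfkbia, which NF-kB induces and which then holds NF-kB in the cytoplasm, had 10.4, 10.3 and 10.2 FPKM in C3H and 16.1, 16 and 15.2 in rd10. Its log2 fold change of 0.56 ± 0.070 (edgeR, adjusted p = 9.21e-07) is 1.47-fold, just short of a call, and it passed the fold without rd10 sample 3 (log2 0.59). Tnfaip3, which removes activating ubiquitin chains from the receptor complex and is itself a standard NF-kB target, had 35.2, 36.3 and 35.1 FPKM in C3H and 23.8, 24.8 and 24.8 in rd10. It fell by 0.59 on the log2 scale (SE 0.038, edgeR adjusted p = 3.15e-11), and the call rested on the fold alone: it was lost without the C3H sample of day 23 (log2 -0.58) and without rd10 sample 1 (log2 -0.57), while the direction stayed.

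**Figure D3:**
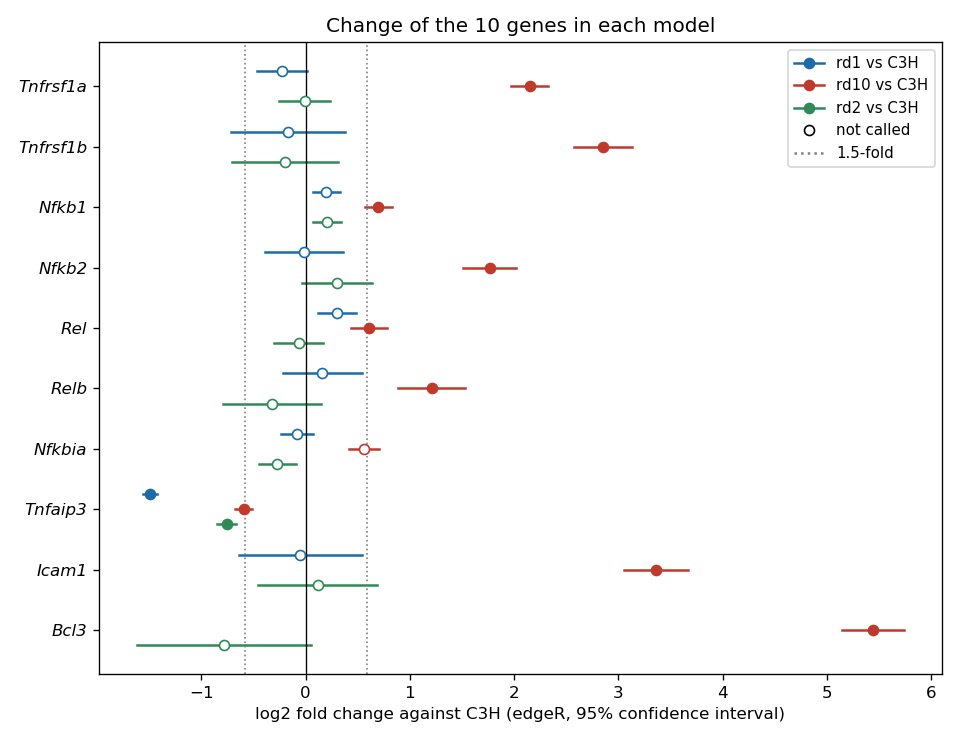
Log2 fold change of each of the 10 genes against C3H in rd1 (blue), rd10 (red) and rd2 (green), with 95% confidence intervals from edgeR; filled points were called and dotted lines mark the 1.5-fold threshold. The red points of 9 genes lie to the right of 0, up to 5.44 for Bcl3, Tnfaip3 lies to the left in all 3 models, and Bcl3 has no point for rd1, where it was not tested.

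In rd1 Tnfaip3 was the one gene called. Of the 9 genes tested, 0 were called higher, where 8.98% of all 18310 genes tested were, and 1 was called lower, where 6.03% were. Samples of rd1 and C3H did not overlap in 2 genes upward (25.8% of all genes) and 3 downward (25.2%). At an adjusted p under 0.05 by edgeR 3 of the 9 passed, against 43.2% of all genes, and the median log2 fold change of the 9 was -0.05, beside -0.01 for all genes. Tnfaip3 had 13.4, 13.2 and 13.2 FPKM in rd1, all far below the controls, and fell by 1.49 on the log2 scale (SE 0.034, edgeR adjusted p = 1.22e-20). This is its largest fall in the 3 models.

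The other genes that passed in rd1 were subunits and stayed under the fold. Rel had 2.26, 1.93 and 2.13 FPKM, above the controls in every sample, with a log2 fold change of 0.30 ± 0.088 (edgeR, adjusted p = 0.00712). Nfkb1 had 2.39, 2.68 and 2.73 FPKM and a log2 fold change of 0.20 ± 0.063 (edgeR, adjusted p = 0.0139). They were the 2 genes higher at an unadjusted p under 0.05 by edgeR, and 0 were called higher by DESeq2 or limma. The receptors, Nfkb2, Relb, Nfkbia and Icam1 did not pass. For Tnfrsf1a the 95% interval of the log2 fold change ran from -0.47 to 0.01 and for Nfkbia from -0.24 to 0.07, so that a 1.5-fold rise lay outside both. For the low genes Tnfrsf1b (-0.72 to 0.38) and Icam1 (-0.64 to 0.54) the intervals were wider, with 24 to 43 and 20 to 40 counts a sample. Bcl3, with 9, 4 and 5 counts, was under the count filter of this comparison. Tested without the filter it had a log2 fold change of -1.05 ± 0.48 (edgeR, unadjusted p = 0.0294, adjusted p = 0.0983), and it passed the call without the day 13 control (log2 -1.17) and without rd1 sample 1 (log2 -1.35). At this depth a fall was not settled.

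In rd2, which had the fewest calls of all genes, 0 of the 10 genes were called higher, where 2.68% of 18581 genes tested were, and 1 was called lower, where 1.89% were, or 4.57% in either direction. Samples did not overlap in 2 genes upward (15.6% of all genes) and 3 downward (13.3%). The median log2 fold change of the 10 was -0.13, beside 0.00 for all genes, and 2 passed an adjusted p under 0.05 by edgeR, against 9.70% of all genes. Tnfaip3 had 21.3, 21.5 and 21.7 FPKM, again without overlap with the controls, and fell by 0.76 on the log2 scale (SE 0.044, edgeR adjusted p = 5.49e-08). Nfkb1, at 2.55, 2.54 and 2.51 FPKM, was slightly above the controls, with a log2 fold change of 0.21 ± 0.061 (edgeR, adjusted p = 0.048). Nfkbia, at 8.56, 9.47 and 8.15 FPKM, lay below them (log2 -0.27 ± 0.083, edgeR adjusted p = 0.0521), which is the opposite direction to rd10 and does not pass. Nfkb1 was the 1 gene higher at an unadjusted p under 0.05 by edgeR, and 0 were called higher by DESeq2 or limma. Bcl3 had 7, 12 and 7 counts against 10 to 15 in C3H. Its log2 fold change of -0.78 ± 0.39 (edgeR, adjusted p = 0.242) was not called, and it was called without rd2 sample 2 (log2 -1.08). The receptors, the other subunits and Icam1 had log2 fold changes between -0.32 and 0.31.

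Against the single C3H sample that carries the same day as the model, the mean FPKM of Bcl3 in rd10 was 44.7 times (day 23), of Icam1 9.25 times, of Tnfrsf1b 6.92 times and of Tnfrsf1a 4.35 times. Relb was at 3.00 times its day 23 control in rd10 and 0.647 times its day 29 control in rd2, against 2.39 and 0.814 times the mean of all 3. Icam1 in rd1 was at 1.43 times its day 13 control, against 1.01 times that mean. Tnfaip3 was at 0.674 times its day 23 control in rd10, 0.377 times its day 13 control in rd1 and 0.612 times its day 29 control in rd2. With a lone control the fit assumes that it varies like the other samples. In such a fit, chosen after seeing the data, 8 of the 10 genes were called in rd10 (21.1% of all genes in that fit), Rel (log2 0.50) dropping out, 1 in rd1 (12.4%), and 3 in rd2 (4.80%), where Relb (log2 -0.67) and Bcl3 (log2 -1.0) joined Tnfaip3. Relb in the day 29 control was the highest of the 3 controls, at 0.948 FPKM.

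The models were then compared with each other in a fit of all 12 samples, to test the differences between them directly. These comparisons share samples with those above and with each other. Between rd10 and rd1, 8 of the 10 genes were called higher in rd10 (17.6% of all 19616 genes tested) and 0 lower (11.2%), and all 10 lay above rd1 without overlap (32.7%). The genes were both receptors, Nfkb2, Relb, Nfkbia, Tnfaip3, Bcl3 and Icam1, whereas Nfkb1 (log2 0.52 ± 0.063) and Rel (log2 0.33 ± 0.093) were higher at edgeR adjusted p = 5.47e-07 and 0.00482 but under the fold. Between rd10 and rd2, 8 were called higher in rd10 (13.5% of all genes) and 0 lower (6.16%), or 19.7% in either direction, here with Rel and without Nfkb1 (log2 0.49 ± 0.062) and Tnfaip3 (log2 0.17 ± 0.038). Bcl3 differed most in both, by log2 6.51 ± 0.17 and 6.23 ± 0.16 (edgeR, adjusted p = 3.77e-17 and 4.29e-17). With limma on log2(FPKM + 1), Relb (log2 0.58) and Nfkbia (log2 0.58) lost their calls between rd10 and rd1, and Rel (log2 0.47) between rd10 and rd2. Between rd1 and rd2, 0 were called higher in rd1 (8.66%) and 1 lower (8.21%), or 16.9% in either direction. It was Tnfaip3, by log2 -0.76 ± 0.039 (edgeR, adjusted p = 6.02e-12). Samples of rd1 lay above rd2 without overlap in 3 genes (22.2% of all genes) and below in 2 (25.3%), and 2 genes had an adjusted p under 0.05 by edgeR (39.8%). Relb was called higher in rd1 without rd2 sample 1 (log2 0.60). These models also differ in day, in the share of female tissue and, for rd10, in strain by the study's methods, the strain of rd2 being given differently by methods and labels.

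The other genes of the pathway were described from a list of 63 by role, of which 62 were in the files. This list, too, was chosen with earlier results of these data known. Genes near 0 in C3H could enter the test of rd10 only through their rd10 counts, so calls were counted over genes that reached the count filter in all 3 C3H samples, a rule chosen after seeing the data. Of 45 such genes 15 were called higher in rd10 and 1 lower, against 11.7% and 8.77% of the 17135 genes of the whole table that reached it. Their median log2 fold change was 0.19, beside -0.03 for those genes. A further 11 pathway genes entered through rd10 alone, and those of them named below are given by their counts.

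Tnf itself was listed at 0 counts in every C3H and every rd1 sample, which allows up to 3 counts a sample, and at 0, 1 and 0 in rd2. In rd10 it had 24, 8 and 10 counts, at least 4.18-fold higher than C3H, and was under the filter of the test. None of the 7 ligands in the files reached the filter in all C3H samples, and 3 entered the test through rd10. Il1b, the interleukin that drives the same pathway through its own receptor, was at 0 or 1 count in C3H and 41 to 46 in rd10, at least 13.8-fold higher. Il1a and the B cell factor Tnfsf13b had 1 to 10 and 7 to 15 counts in C3H, and 40 to 54 and 36 to 45 in rd10. The lymphotoxin genes Lta and Ltb had 2 to 4 and 2 to 7 counts in C3H and 2 to 6 and 2 to 7 in rd10, and Tnfsf11 had 0 to 2 and 0. Of 5 other receptors, 3 rose: the interleukin receptor Il1r1 (log2 1.84 ± 0.092), the lymphotoxin receptor Ltbr (log2 1.30 ± 0.089) and Tnfrsf11a (log2 0.62 ± 0.14), with edgeR adjusted p = 5.96e-13, 8.39e-11 and 0.00082. Tnfrsf13c, the receptor for Tnfsf13b, fell by 2.26 on the log2 scale (SE 0.32, edgeR adjusted p = 4.79e-06) and was the only gene of the list called lower.

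Of 17 adaptors and kinases counted, 2 were called higher in rd10, Birc3 (log2 2.61 ± 0.22), a ubiquitin ligase that NF-kB induces, and Ripk1 (log2 0.75 ± 0.087), the kinase recruited by the receptor's death domain (edgeR, adjusted p = 1.84e-09 and 3.58e-07). Their median log2 fold change was -0.08. The IKK complex had 0 of 3 called, with log2 fold changes of 0.16 ± 0.052 for Chuk, 0.11 ± 0.063 for Ikbkb and -0.07 ± 0.048 for Ikbkg. Rela, the main transactivating partner of the Nfkb1 product, had 7.31, 6.48 and 7.88 FPKM in C3H and 10.4, 10.8 and 10.3 in rd10. It passed the test without reaching the fold (log2 0.48 ± 0.075, edgeR adjusted p = 1.57e-05). Of 8 further inhibitors, 3 rose, Nfkbie (log2 1.52 ± 0.14), Tnip2 (log2 1.34 ± 0.074) and Nfkbiz (log2 0.83 ± 0.077), with edgeR adjusted p = 1.26e-08, 2.79e-12 and 1.12e-08.

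Of 11 targets counted, 7 were called higher and 0 lower, with log2 fold changes from 0.59 ± 0.059 for Fos to 5.82 ± 0.10 for Lcn2, both named after their values were seen. A further 7 targets entered the test through rd10 alone. The chemokine Cxcl10, which draws T cells, was at 0 counts in C3H and 142 to 226 in rd10, at least 54.0-fold higher. Ccl2, which draws monocytes, was at 0 to 3 and 144 to 244 counts, at least 56.5-fold higher. The adhesion molecule Selp of activated endothelium was at 0 and 43 to 57 counts, at least 15.7-fold higher, and the chemokine Ccl5 at 0 and 11 to 15 counts, at least 4.22-fold. That the rd10 samples lay above every control for each of these follows from their entry through rd10 counts and is no separate result.

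In rd1, 1 of 45 pathway genes counted by the same rule was called higher and 4 lower, against 6.84% and 6.41% of all genes that reached the filter. The gene called higher was Fos (log2 1.11 ± 0.052, edgeR adjusted p = 1.81e-14), a transcription factor of the immediate early response. Those called lower were the targets Mmp9 (log2 -1.34 ± 0.13), Gadd45b (log2 -1.03 ± 0.27) and Ier3 (log2 -0.70 ± 0.069) and the receptor Tnfrsf13c (log2 -1.09 ± 0.25), with edgeR adjusted p = 7.66e-09, 0.00342, 1.36e-08 and 0.00108. Rela (log2 -0.10 ± 0.086), Chuk (0.03 ± 0.055), Ikbkb (0.11 ± 0.050) and Ikbkg (-0.14 ± 0.046) were not called. In rd2, 0 of 46 were called higher and 1 lower, against 1.98% and 2.01%, with the same counts by DESeq2 over all pathway genes tested. The gene called was Fos (log2 -1.45 ± 0.073, edgeR adjusted p = 1.43e-08), and Rela (log2 -0.10 ± 0.091), Chuk (0.04 ± 0.058), Ikbkb (-0.03 ± 0.058) and Ikbkg (-0.03 ± 0.062) were not called. Fos thus differed from C3H in opposite directions in rd1 and rd2, and it was higher in rd1 than in rd2 by log2 2.53 ± 0.067 (edgeR, adjusted p = 2.1e-16).

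Markers of other cell types moved with the rise in rd10. Of 13 microglia markers that reached the filter in C3H, 12 were called higher in rd10 and 0 lower, P2ry12 being the exception, and the summed level of all 14 was 149 to 169 FPKM against 49.4 to 51.4 in C3H. None of them was at 0 in any group. Recruited monocyte and neutrophil markers summed to 3.04 to 3.69 FPKM in rd10 against 0.0919 to 0.333, with none of the 7 reaching the filter in C3H, Plac8, S100a9, Mpo and Elane at 0 in C3H and Elane at 0 in rd10. The others were uneven in rd10, with 103 to 169 counts for Ccr2, 24 to 27 for Plac8 and 14 to 24 for Ly6c2. S100a8 had 6 to 11 counts there, S100a9 6 to 8 and Mpo 0 or 1. Lymphocyte markers summed to 1.24 to 1.47 FPKM against 0.0762 to 0.187, with Cd3e, Cd3g and Nkg7 at 0 in C3H. In rd10 none of the 9 was at 0 in all samples, but Cd3e, Cd3d, Ms4a1 and Cd79a had at most 3 counts in any sample. Only Cd8a, with 27 to 35 counts in rd10, was tested, and it entered through rd10 alone. The markers of glial reactivity, a list that shares Lcn2 with the targets, summed to 240 to 255 FPKM in rd10 against 11.5 to 13.1 in C3H, with 5 of the 5 that reached the filter in C3H called higher. Endothelial markers summed to 72.1 to 77.9 FPKM in rd10 against 87.4 to 90.0, with 0 of 8 called higher and 1 lower, Kdr (log2 -0.60). Kdr has the highest level of that list, with a mean of 45.1 FPKM in C3H and 31.0 in rd10. The median log2 fold change of the 8 was -0.0034, so the lower sum does not stand for the list. Mueller glia markers summed to 895 to 925 against 957 to 976, with 1 of 8 called higher, Vim (log2 0.76), and 1 lower, Slc1a3 (log2 -0.76). The part of these cell types in the change of the 10 genes was not tested.

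In rd1 and rd2 the microglia sums were 50.5 to 53.6 and 45.3 to 47.6 FPKM, with 2 of 13 and 1 of 14 markers called higher, and those of glial reactivity were 12.1 to 12.6 and 10.8 to 12.2 FPKM. Both lie close to the sums in C3H. Rod markers summed to 4636 to 4740 FPKM in C3H, 4145 to 4327 in rd10, 3072 to 3309 in rd2 and 2294 to 2338 in rd1. Of the 8 markers 4, 3 and 5 were called lower in rd10, rd2 and rd1. The sums have the order of Tnfaip3, which was highest in C3H, then in rd10, rd2 and rd1. Taken per marker the order differed: the median log2 fold change against C3H was -0.72 in rd10, -0.37 in rd2 and -0.75 in rd1. Mueller glia markers were also low in rd1, at 533 to 540 FPKM, but not in rd2, at 1052 to 1077. The part of rods or glia in the fall of Tnfaip3 was not tested.

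**Figure D4:**
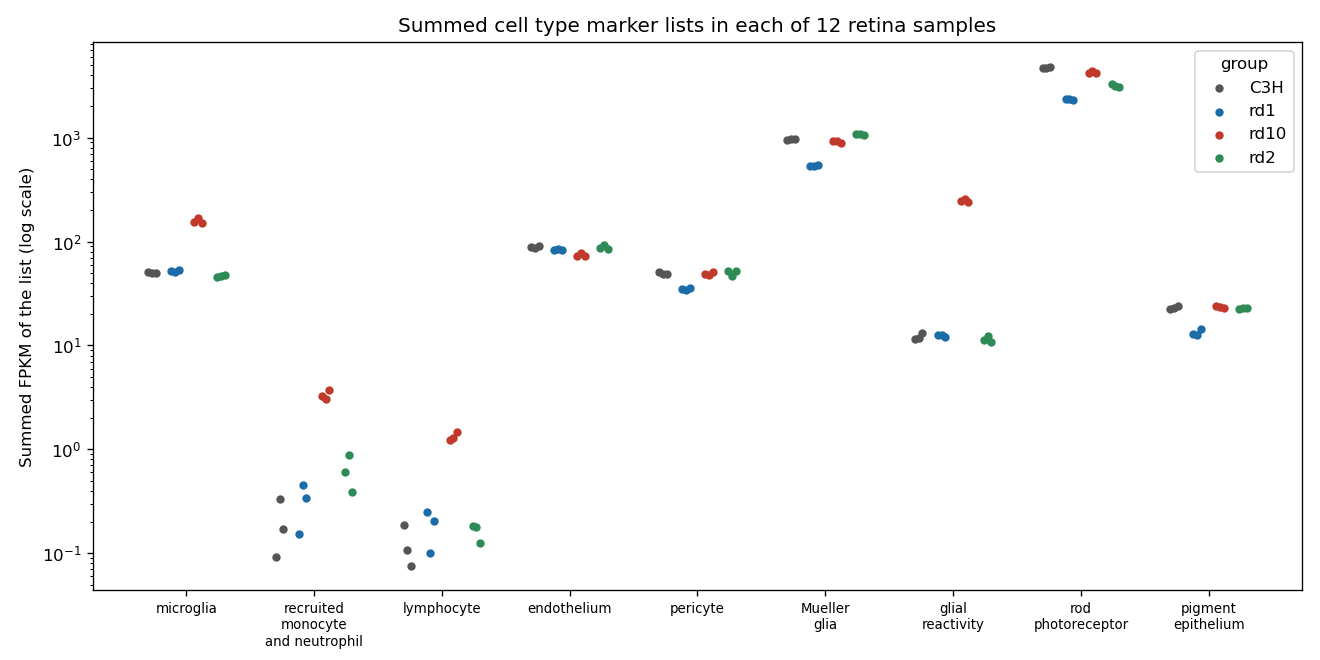
Summed FPKM of 9 cell type marker lists in each sample on a log axis, coloured by group. The red points of rd10 stand above all others for microglia, recruited monocytes and neutrophils, lymphocytes and glial reactivity, while for rod markers the 4 groups follow the order C3H, rd10, rd2, rd1.

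The genes whose pattern over the 12 samples was most like each of the 10 were found by Pearson's r of log2(FPKM + 1) among 15654 genes with at least 1 FPKM in at least 3 samples. These r values describe likeness and carry no test, since the 12 samples share their groups and, for the genes that rose, most of the spread is the distance of rd10 from the rest. For Tnfrsf1a they were Rec8 (0.998), the non-classical MHC gene H2-T23 (0.997) and Steap4 (0.997), and for Tnfrsf1b H2-T23 (0.996), Ms4a6d (0.995) and Pcolce (0.995). Icam1 was most like Tnfrsf8, a further TNF receptor family member (0.997), the MHC class II gene H2-Aa (0.997) and Gm14216 (0.996), and Bcl3 most like 6430562O15Rik (0.999), Gm14216 (0.999) and Zfp36, which destabilizes cytokine mRNA (0.999). The subunits were less close to their nearest genes. Nfkb2 was most like Afg3l2 (0.989), Gna14 (0.988) and the metallothionein Mt1 (0.988), Relb like Shisa4 (0.985), Pop4 (0.984) and Gm5466 (0.980), Nfkb1 like Atg3 (0.977), Meg3 (0.973) and Spon1 (0.973), and Rel like Tmem260 (0.974), Clic4 (0.970) and Ptbp3 (0.961). Nfkbia was most like Vim, the intermediate filament of glia (0.991), Adamtsl4 (0.991) and Irf7, an interferon regulatory factor (0.986). Tnfaip3 had a different set, Nxnl1, which encodes a survival factor that rods supply to cones (0.978), the Notch ligand Jag1 (0.977) and Uckl1 (0.976).

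Of the 12510 circular RNAs in the second table, 0 had 1 of the 10 genes as host, and 21 came from 8 of the other pathway genes.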

How the data were processed

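Samples were grouped by their titles, 3 each of C3H, rd1, rd10 and rd2, and the 10 genes and all lists were chosen with earlier results of these data known. The gene counts were deposited without normalization: the authors cleaned reads, aligned them to GRCm38 and counted them per gene with HTSeq 0.11.2. The deposited FPKM values were computed by the authors from gene length and library depth. The circRNA table holds junction counts and TPM values that the authors made with TopHat2 2.1.1, and was used only for host genes. Counts were tested in R 4.3.3 with edgeR 4.0.16 (TMM, filterByExpr with a minimum count of 10, quasi-likelihood test), each model against C3H on 6 samples and models against each other in a fit of 12. SE is the log2 fold change over the root of F. The steps were tested on simulated data. All 10 genes were named in every comparison, and of the pathway list, per role and direction, up to 4 called genes with the largest fold, plus Tnf, Rela, Chuk, Ikbkb and Ikbkg. Each result was recomputed with limma 3.58.1 (FPKM plus 1 or 0.1, log2), DESeq2 1.42.0, other size factors and filters, an adjusted p, a replicate block, leaving out each sample, and the control of the same day. The floor of 3 counts covers counting error only, because PCR copies were not told from molecules. Sequences are from RefSeq (GRCm38.p6), and figures were made with Python 3.11.15.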

Additional observations from a re-analysis of the deposited data

Results flagged for a closer look

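The models were compared directly with edgeR, and each difference given here was called, so that the effects against C3H differ between the models. Against rd1, rd10 was higher by log2 2.40 in Tnfrsf1a, 3.05 in Tnfrsf1b, 1.81 in Nfkb2, 1.07 in Relb, 0.67 in Nfkbia, 6.51 in Bcl3 and 3.44 in Icam1. Against rd2, rd10 was higher by log2 2.16 in Tnfrsf1a, 3.06 in Tnfrsf1b, 1.46 in Nfkb2, 0.68 in Rel, 1.53 in Relb, 0.83 in Nfkbia, 6.23 in Bcl3 and 3.26 in Icam1. With limma at a pseudocount of 1 the differences of Relb (0.58) and Nfkbia (0.58) from rd1 and of Rel (0.47) from rd2 were not called. Tnfaip3 was called lower against C3H in all 3 models, but its fall differed in size. It was higher in rd10 than in rd1 by 0.93 on the log2 scale (SE 0.039, edgeR adjusted p = 6.34e-14), and lower in rd1 than in rd2, with a log2 difference of -0.76 (SE 0.039, edgeR adjusted p = 6.02e-12). In both comparisons every sample of the one model lay apart from every sample of the other.

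Among the other pathway genes, 3 were called in opposite directions against C3H in a pair of models. Fos was lower in rd2 and higher in rd1 and rd10, with log2 differences of 2.53 between rd1 and rd2 and 2.04 between rd10 and rd2. The stress gene Gadd45b and the protease gene Mmp9 were lower in rd1 and higher in rd10, with log2 differences of 4.55 and 3.16 between rd10 and rd1. The day, the strain (for rd10 by the methods, and possibly for rd2 by its labels) and the share of female tissue also differed between the models and cannot be told apart from the mutation.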

How the results depend on the processing

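Among the 10 genes, no call turned its direction under the alternatives run, and the other genes were followed only as counts. In rd10 the count of the 10 genes called stayed within 8 to 10 with 1 sample left out. In rd1 it was 2 instead of 1 with no filter on low counts, with limma at a pseudocount of 0.1 and with all 12 samples in 1 fit, Bcl3 being added as lower, and in rd2 it was 2 with all 12 samples in 1 fit and 3 with the same-day control. With 1 sample left out it ran from 1 to 2 in rd1, in rd2 and between rd1 and rd2. In rd10, Tnfaip3 was not called with upper quartile factors (log2 -0.56) or with limma (log2 -0.54 and -0.52), Rel and Nfkb1 not with limma at a pseudocount of 1 (log2 0.45 and 0.55), and Nfkbia was called with upper quartile factors (log2 0.59) and limma at 0.1 (log2 0.61). Of the 10 genes, 6 were called between rd10 and rd1 and 7 between rd10 and rd2 with limma at a pseudocount of 1, instead of 8. Pathway genes called were 3 in rd1 and 2 between rd1 and rd2 with limma at a pseudocount of 1, with or without filter, and in rd2 they were 2 with no filter, 3 with the same-day control and 1 to 2 with 1 sample left out. Over genes that reached the count filter in all C3H samples, chosen after seeing the data, 16 pathway genes were called in rd10 instead of 26. Of all genes, limma at a pseudocount of 1 called 2193 in rd10, 1184 in rd1 and 181 in rd2, and without filter 2192, 1180 and 174. Between models it called 3050 (rd10 and rd1), 1889 (rd10 and rd2) and 1153 (rd1 and rd2), and without filter 3046, 1884 and 1151. In rd2, with 850 of all genes called, 1300 were called with no filter, 384 by the adjusted p, and 745 to 1435 with 1 sample left out, the highest without rd2 sample 2. The share called higher was 58.6% in rd2 and fell to 40.3% with limma at a pseudocount of 1, to 42.0% with that and no filter and to 44.7% without rd2 sample 2. The causes were not tested. Samples with the same replicate number did not all deviate together (correlations from -0.10 to 0.30 over the pairs of groups). Their mean correlation was above that of samples with other numbers in every pair of groups except C3H with rd10 (-0.02 against 0.01). The gap was largest between rd1 and rd2 (0.16 against -0.08). Deviations were taken from the mean of each group, which ties these mean correlations to each other. The gap is therefore no evidence beyond the correlations of the same number. Whether the number marks a pairing was therefore not settled. With the replicate number as a block, 9 of the 10 genes were called in rd10, 1 in rd1, 1 in rd2, 8 between rd10 and each other model and 1 between rd1 and rd2, the same counts as without it. Depth limits Bcl3 in rd1 and rd2 and Tnf in every group, where single reads set the value.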
